A study of Mus musculus with 6 samples.

Results

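Mvk, Mvd, Fdft1, Cyp51 and Msmo1 encode enzymes of cholesterol synthesis, and they are the 5 genes described here out of the 389 in the table analysed. They were taken by symbol, and all 5 had a row. The table holds read counts and FPKM (fragments scaled to transcript length and sequencing depth) from the livers of 3 Usp28 knockout samples (KO, whole-body loss of the deubiquitinase gene Usp28; the allele is not described in the labels) and 3 wild-type samples (WT). Both genotypes ate a methionine-choline deficient diet for 4 weeks from 8 weeks of age, a feeding model of steatohepatitis that also changes hepatic lipid export, and mice on a control diet were not analysed here. The study's title names the expression of PPARγ as dependent on USP28.

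Cells build cholesterol from acetyl-CoA. The mevalonate steps come first and make isoprenoid units, squalene synthase then commits those units to sterols, and a series of membrane enzymes trims lanosterol to cholesterol. The liver is a main site of this pathway, and its enzyme genes are known as a group controlled by the transcription factor SREBF2, which INSIG and SCAP proteins hold in the endoplasmic reticulum when sterols are plentiful. Along the pathway, MVK phosphorylates mevalonate, MVD decarboxylates its diphosphate, FDFT1 joins farnesyl units to squalene, CYP51 removes a methyl group from lanosterol, and MSMO1 oxidises the methyl groups that remain on the next sterols.

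All 5 genes were higher in KO than in WT liver by mean, by 2.30-fold (Cyp51) to 2.88-fold (Mvd), and 4 of the 5 passed the test (edgeR's quasi-likelihood test, Benjamini-Hochberg adjusted p of 0.05 over the 389 genes). The authors had already selected the genes of the table for a difference between KO and WT, with an FDR of at most 0.0494 and a log2 change past 1 in either direction in the authors' deposited table. Of all the listed genes 99.7% passed in edgeR, with 39.8% higher and 59.9% lower in KO. The count of 4 of 5 is therefore no result about these genes. What the table adds is their level in each library.

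The promoters of these genes are shown because the genes moved together across libraries. The sequence tables (RefSeq, GRCm38.p6) held the 250 bases before the start of Mvk, Mvd, Cyp51 and Msmo1, and not of Fdft1. The stretches of Mvk, Mvd and Cyp51 outside annotated exons follow, each 5′ to 3′ on the strand of the gene. Capitals mark the NF-Y box (CCAAT, or ATTGG on the other strand), the GC box (GGGCGG, or CCGCCC on the other strand) and, in Cyp51, the best match to the sterol response element of 10 bases.
Mvk, plus strand, chr5:114444061-114444268: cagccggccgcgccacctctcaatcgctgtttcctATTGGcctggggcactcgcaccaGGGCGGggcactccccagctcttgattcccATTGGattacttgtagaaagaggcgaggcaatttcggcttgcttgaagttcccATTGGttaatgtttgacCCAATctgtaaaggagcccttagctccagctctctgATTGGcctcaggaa
Mvd, minus strand, chr8:122443423-122443672: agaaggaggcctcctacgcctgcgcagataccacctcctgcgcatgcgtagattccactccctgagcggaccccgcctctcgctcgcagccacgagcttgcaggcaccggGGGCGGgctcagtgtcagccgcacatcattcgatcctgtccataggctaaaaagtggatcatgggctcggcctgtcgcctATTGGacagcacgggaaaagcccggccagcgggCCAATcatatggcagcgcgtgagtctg
Cyp51, minus strand, chr5:4104747-4104947: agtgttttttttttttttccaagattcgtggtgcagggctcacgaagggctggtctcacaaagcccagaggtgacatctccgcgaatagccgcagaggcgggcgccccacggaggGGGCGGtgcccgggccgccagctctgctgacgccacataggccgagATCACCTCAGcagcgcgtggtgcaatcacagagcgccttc

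NF-Y is a factor that binds CCAAT boxes and is known to act beside SREBF2 at sterol genes. All 4 windows held at least 1 NF-Y box, as did 33.8% of the 32851 promoters of the table searched over the same 250 bases on both strands. Mvk held 5, at positions -173, -120, -67, -50 and -14 before its start (the 5′ base of each match), and 0.213% of all promoters held 5 or more. Msmo1 held 3, Mvd held 2 and Cyp51 held 1, at -29 and so outside the printed stretch. All 4 windows also held a GC box, a motif known from binding of SP1, against 32.7% of all promoters. The exact sterol response element, and a form of it with any base at position 6, were in none of the 4 windows and in 0.0731% and 0.192% of all promoters. The best match in Cyp51 was ATCACCTCAG at -89 to -80, with 8 of the 10 letters and the differences C7T and C10G, counted from 1 at the 5′ end of the element with its base first. Msmo1 held ATCACTGCAC at -93 to -84, also with 8 letters (C6T and C7G), and this match shares bases with the NF-Y box at -96. An 8-letter match or better was in 6572 of the 32851 promoters, and the best matches of Mvk and Mvd had 7 and 6 letters. In the Mvk window, 42 bases belong to an exon of Mmab, a gene on the opposite strand that starts there and that had no row among the genes analysed here. In the Msmo1 window, 214 bases belong to exons of other Msmo1 transcripts, and its sequence is not printed. These matches describe letters in a window, not bound sites.

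**Figure D1:**
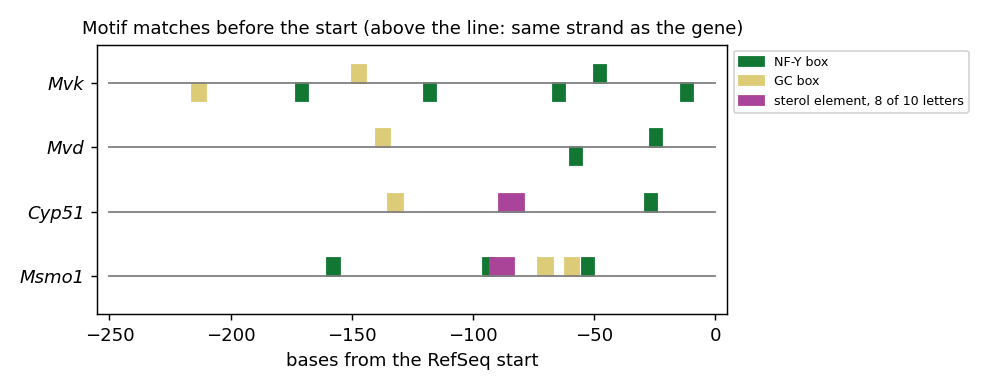
Positions of motif matches in the 250 bases before the RefSeq start of Mvk, Mvd, Cyp51 and Msmo1 (x axis, bases from the start; 1 line per gene). Boxes above a line lie on the strand of the gene and boxes below it on the other strand; the 5 NF-Y boxes of Mvk spread over its window, and the 8-letter sterol element match of Msmo1 covers part of an NF-Y box.

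The 6 libraries had between 20350000 and 24160000 reads, as recovered from the counts and FPKM of the same genes. The 389 listed genes took 5.45% to 8.81% of the reads in WT and 3.73% to 3.77% in KO. The targeted gene Usp28 has no row here and could not be used to check the genotypes. None of the 10 hepatocyte markers on the list used here had a row either. Listed genes typical of liver, named after their values were seen, were high in all 6 libraries. Mat1a, which encodes the liver form of methionine adenosyltransferase, was at 3680, 4851 and 1664 FPKM in WT replicates 1, 2 and 3 and at 1057 to 1380 in KO. Fabp1, which encodes the liver fatty acid binding protein, was at 4741, 2503 and 1458 in WT and at 1195 to 1420 in KO. Both were lower in KO (log2 differences -1.42 and -1.12), so neither is a steady reference for the tissue. The listed macrophage markers, 6 of 13 on that list, were Gpnmb, Mmp12, Itgax, Lgals3, Cd14 and Itgam. They summed to 168 FPKM in WT replicate 3, against 67.1 and 30.8 in replicates 1 and 2 of WT, and to between 20.7 and 28.9 in KO. Lgals3 (76.1) and Mmp12 (53.4) were the largest in WT replicate 3. Gpnmb (11.5 against 11.3) and Itgam (1.01 against 0.78) were there only slightly above WT replicate 1. On the neutrophil list of 8 genes, only Lcn2 had a row. It was at 120 FPKM in WT replicate 3, 28.8 and 33.9 in WT replicates 1 and 2, and 8.02 to 12.4 in KO. With the other 7 genes of that list absent, Lcn2 alone does not tell neutrophils from other sources of its RNA. Defining markers such as Adgre1, Cd68 and Clec4f had no row. In bulk liver, fewer cells of a type and less RNA per cell cannot be told apart. The part of these cell types in the results below was not tested.

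Summed over the 5 enzyme genes, FPKM came to 107, 43.6 and 194 for replicates 1, 2 and 3 of WT, and to 335, 328 and 199 for those of KO. WT replicate 3 and KO replicate 3 thus lay next to each other at the inner edges of the groups. In CPM, which scales counts to depth and not to length, the sum was 280, 114 and 523 for replicates 1, 2 and 3 of WT and 857, 875 and 517 for those of KO, so that on this scale WT replicate 3 was just above KO replicate 3 and the groups overlapped.

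Mvk (ENSMUSG00000041939, chromosome 5, 114444269 to 114460591, plus strand, GRCm38) encodes mevalonate kinase, the first enzyme after mevalonate is made. Its FPKM was 7.89, 6.32 and 16.7 in WT replicates 1, 2 and 3, against 32.2, 29.3 and 21.4 in KO replicates 1, 2 and 3. Counts behind these were 230, 213 and 502 in WT and 953, 902 and 668 in KO. Every KO library was above every WT library, and the lowest KO value was 1.28 times the highest WT value, the widest gap of the 5 genes. The WT mean was 10.3 ± 5.62 FPKM and the KO mean 27.6 ± 5.61 (SD, n = 3 each). On the log2 scale KO exceeded WT by 1.39 ± 0.41 (SE; edgeR, adjusted p = 0.0120). Mvk was also the steadiest of the 5: its highest WT library was 2.65 times its lowest, and its highest KO library 1.51 times its lowest. It passed with any 1 library left out, with edgeR adjusted p from 0.000516 to 0.0437. These refits reuse libraries by which the authors selected the gene, and they adjust over the listed genes only. Adjusted over the 16198 genes implied by the authors' FDR and p-values, its edgeR p was 0.501 with all 6 libraries.

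Mvd (ENSMUSG00000006517, chromosome 8, 122433601 to 122443422, minus strand) encodes mevalonate diphosphate decarboxylase, which makes the isoprenoid building block. Its FPKM was 4.53, 0.99 and 8.26 in WT replicates 1, 2 and 3, against 13.5, 17.3 and 8.85 in KO replicates 1, 2 and 3. Here WT replicate 2 was far below the others, with 42 counts (95% exact Poisson interval 30.3 to 56.8, for counting error only), against 162 and 296 in the other WT libraries and 339 to 672 in KO. The groups did not overlap, but WT replicate 3 and KO replicate 3 nearly met, at a ratio of 1.07. The WT mean was 4.59 ± 3.64 FPKM and the KO mean 13.2 ± 4.23 (SD, n = 3 each), and the log2 difference was 1.52 ± 0.60 (SE; edgeR, adjusted p = 0.0307). The log2 fold change became 2.27 without WT replicate 3 and 1.04 without WT replicate 2 (edgeR adjusted p = 0.0410). The call was lost on leaving out WT replicate 1 (edgeR adjusted p = 0.0514), KO replicate 1 (0.0666) or KO replicate 2 (0.118). In these fits the log2 fold change was 1.51, 1.51 and 1.28.

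Fdft1 (ENSMUSG00000021273, chromosome 14, 63145150 to 63179578, minus strand) encodes squalene synthase, the enzyme at the branch from isoprenoids to sterols. Its FPKM was 31.5, 14.9 and 52.6 in WT replicates 1, 2 and 3, against 85.0, 92.7 and 57.5 in KO replicates 1, 2 and 3, on 1090 to 6114 counts. The KO libraries were all above the WT libraries, with KO replicate 3 only 1.09 times WT replicate 3. The WT mean was 33.0 ± 18.9 FPKM and the KO mean 78.4 ± 18.5 (SD, n = 3 each), 1.25 ± 0.44 higher on the log2 scale (SE; edgeR, adjusted p = 0.0196). With WT replicate 2 left out the edgeR adjusted p was 0.0551, with KO replicate 1 left out 0.0557 and with KO replicate 2 left out 0.0734, all above 0.05. The log2 fold changes in these fits were 0.91, 1.20 and 1.11. Fdft1 shares 774 of its 4227 exon bases with Ctsb, a gene on the opposite strand, and is 97.4% identical over 1249 bases to the processed pseudogene Gm6781. The use of strand in counting is not given in the sources used here, so reads in the bases shared with Ctsb may not be told apart. Reads in the stretch like Gm6781 may be placed at either gene whatever the strand. The level of Fdft1 is uncertain to that extent.

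Cyp51 (ENSMUSG00000001467, chromosome 5, 4081145 to 4104746, minus strand) encodes lanosterol demethylase. Its FPKM was 22.2, 7.99 and 49.4 in WT replicates 1, 2 and 3, against 65.5, 77.4 and 40.3 in KO replicates 1, 2 and 3. For this gene the groups overlapped: WT replicate 3 was above KO replicate 3, both in FPKM and in counts (3948 against 3456). The WT mean was 26.5 ± 21.0 FPKM and the KO mean 61.1 ± 18.9 (SD, n = 3 each), and the log2 difference of 1.20 ± 0.56 did not pass (SE; edgeR, adjusted p = 0.0565). It was the 1 gene of the 389 that missed the threshold. Without WT replicate 3 its log2 fold change was 2.02 and it passed (edgeR adjusted p = 0.00445), and without WT replicate 2 it was 0.77 (edgeR adjusted p = 0.134). DESeq2 with the same depths and limma on log2(FPKM + 0.1) called it (adjusted p = 0.0265 and 0.0293). Cyp51 shares 166 of its 4415 exon bases with Akap9 on the opposite strand.

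Msmo1 (ENSMUSG00000031604, chromosome 8, 64718139 to 64733792, minus strand) encodes methylsterol monooxygenase, which acts after CYP51. Its FPKM was 40.6, 13.4 and 67.1 in WT replicates 1, 2 and 3, against 139, 112 and 71.0 in KO replicates 1, 2 and 3, from 657 to 5809 counts. No library crossed over between the groups, and KO replicate 3 was 1.06 times WT replicate 3, the narrowest gap among the 4 genes without overlap. The WT mean was 40.4 ± 26.8 FPKM and the KO mean 107 ± 34.3 (SD, n = 3 each), and KO was higher by 1.41 ± 0.52 on the log2 scale (SE; edgeR, adjusted p = 0.0232). The call was lost on leaving out any of the same 3 libraries as for Fdft1. The edgeR adjusted p was 0.0513 without WT replicate 2, 0.0803 without KO replicate 1 and 0.0708 without KO replicate 2. The log2 fold changes in these fits were 0.99, 1.17 and 1.38. Fewer of all listed genes passed in them too, 345, 282 and 278 against 388 with every library. A lost call therefore need not single out a library.

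**Figure D2:**
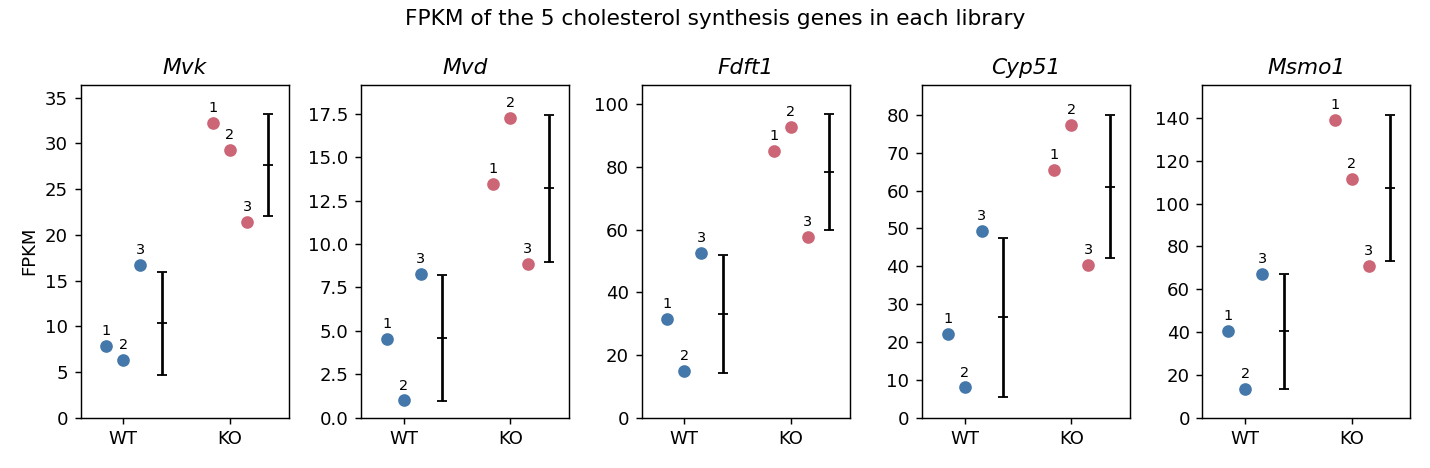
FPKM (y axis, linear, from 0) of the 5 genes in pathway order from Mvk to Cyp51 and Msmo1; points are libraries numbered by replicate, WT in blue and KO in red, and black bars are mean ± SD of 3. WT replicate 2 is the lowest library in every panel, and WT replicate 3 lies close to KO replicate 3, above it for Cyp51.

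Taken library by library, 4 of the 5 genes did not overlap between genotypes, where 93.3% of all 389 genes did not and 38.3% were without overlap and higher in KO. The two-sided exact permutation test of mean log2(FPKM + 0.1) gave p = 0.1 for Mvk, Mvd, Fdft1 and Msmo1, the smallest p that 3 against 3 samples allow, and p = 0.2 for Cyp51. Among the 156 listed genes higher in KO, the fold changes of the 5 ranked from 53 (Mvd) to 99 (Cyp51). Their median log2 fold change of 1.39 compares with 1.31 over those 156 genes. In the authors' deposited table their FDR ran from 3.41e-05 for Mvk to 0.0374 for Cyp51, which ranked 368 of the 389 genes by FDR.

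**Figure D3:**
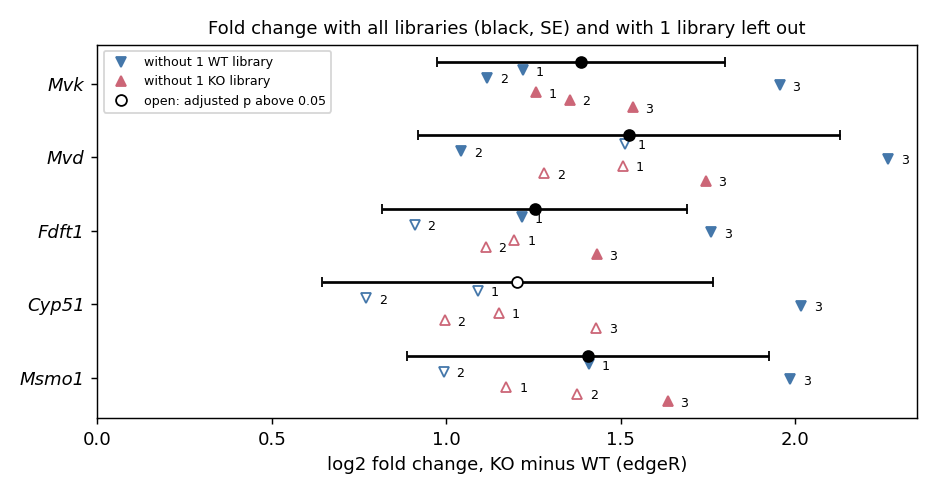
Log2 fold change of KO over WT (x axis) for each gene with all 6 libraries (black circle, bar = SE) and with 1 library left out (triangles numbered by the replicate left out; blue pointing down, WT; red pointing up, KO). Open symbols have an edgeR adjusted p above 0.05. Leaving out WT replicate 3 gives the highest value for every gene, 2.27 for Mvd and 2.02 for Cyp51. Leaving out WT replicate 2 gives the lowest, 1.04 for Mvd and 0.77 for Cyp51.

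The 5 genes varied widely between WT libraries. The highest WT library was 2.65 (Mvk), 3.54 (Fdft1), 5.01 (Msmo1), 6.18 (Cyp51) and 8.34 (Mvd) times the lowest. In KO that ratio was between 1.51 (Mvk) and 1.96 (Msmo1). The median ratio of the 5 was 5.01 in WT and 1.92 in KO, beside 2.25 and 1.39 over the 156 listed genes higher in KO. WT replicate 2 was the lowest library and WT replicate 1 the next for every one of the 5. The middle places belonged to WT replicate 3 and KO replicate 3, and the highest to KO replicates 1 and 2. KO replicate 1 was highest for Mvk and Msmo1, and KO replicate 2 for Mvd, Fdft1 and Cyp51.

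On the log2(FPKM + 0.1) scale, WT replicate 2 lay between 2.09 (Mvk) and 3.56 (Mvd) below the KO mean. WT replicate 1 lay between 1.28 (Fdft1) and 1.77 (Mvk) below it. WT replicate 3 lay 0.70 below it for Mvk, 0.62 for Mvd and for Msmo1, 0.55 for Fdft1 and 0.25 for Cyp51. Most of the difference between genotypes therefore came from WT replicates 1 and 2, and for each gene WT replicate 3 was nearer to KO replicate 3 than to WT replicate 1.

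Per length, the order of the levels was nearly the same in every library. Mvd was the lowest, followed by Mvk, Cyp51, Fdft1 and Msmo1, and WT replicate 2 was the 1 library in which Fdft1 (14.9 FPKM) stood above Msmo1 (13.4 FPKM). Fdft1 and Msmo1 did not differ beyond their spread in WT: the log2 ratio of Fdft1 to Msmo1 was -0.19 ± 0.29 over the WT libraries and -0.43 ± 0.25 over the KO libraries (SD, n = 3 each). The other neighbours kept their order in all 6 libraries, with Fdft1 at 1.06 to 1.86 times Cyp51, Mvk at 0.339 to 0.791 times Cyp51 and Mvk at 1.70 to 6.38 times Mvd. The highest ratio of Mvk to Mvd was in WT replicate 2, where Mvd stood at 0.99 FPKM and Mvk at 6.32.

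The balance between the enzymes was compared between genotypes through the 10 ratios of FPKM within a library. The largest difference was that of Mvd to Fdft1, with a mean log2 ratio of -3.13 ± 0.68 over the WT libraries and -2.59 ± 0.15 over the KO libraries (SD, n = 3 each, two-sided exact permutation p = 0.2). The ratio of Mvd to Cyp51 was the only one without overlap between the groups, at 0.124 to 0.204 in WT and 0.206 to 0.223 in KO (exact permutation p = 0.1, adjusted p = 1 over 10 ratios). No ratio passed, and with 3 samples a group none could. The 10 differences lay between -0.40 and 0.53 on the log2 scale, and a change of balance of this size was not detectable with these libraries.

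Across the 6 libraries the 5 genes kept in step. Pearson's r of log2(FPKM + 0.1) was between 0.919 (Mvk with Mvd) and 0.991 (Mvd with Cyp51) for the 10 pairs, as a description over 6 libraries whose genotype difference was selected. After removing each group's mean, r was between 0.849 (Mvk with Mvd) and 0.999 (Fdft1 with Cyp51). These points share library and depth, and WT replicate 2 lies farthest out. Mvk was the least like the other 4, with r of 0.942 to their mean profile. Of the 384 other listed genes, 24 had an r to the mean profile of the 5 above that value. For the 151 of them higher in KO, the median r to that profile was 0.852, and 0.632 after removing group means. A high r over the 6 libraries was therefore common among listed genes higher in KO.

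**Figure D4:**
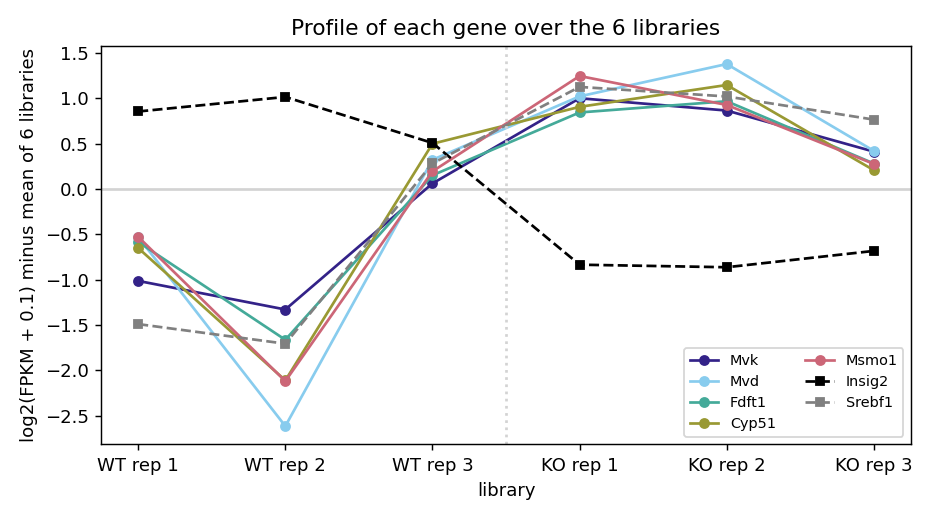
Level of each gene in each library as log2(FPKM + 0.1) minus its mean over the 6 libraries (y axis), by library (x axis), for Mvk, Mvd, Fdft1, Cyp51 and Msmo1 (solid) and for Insig2 and Srebf1 (dashed); the dotted line parts WT from KO. The solid lines dip together at WT replicate 2, to -2.62 for Mvd, while Insig2 has its highest value there.

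The listed genes most like the 5 by r over 6 libraries were Fam72a, Svil, Ss18l1, Elovl6 and Zc3h8, with r from 0.982 to 0.993. Elovl6, which encodes a fatty acid elongase, had the highest levels of these. Its FPKM was 4.33, 2.59 and 10.7 in WT replicates 1, 2 and 3, against 17.2, 17.9 and 9.36 in KO replicates 1, 2 and 3, so it overlapped between the genotypes at the same pair of libraries as Cyp51. Fam72a was at most at 0.80 FPKM, Ss18l1 at 0.91 and Zc3h8 at 1.67, and Svil, which encodes supervillin, ran from 1.38 to 6.15. By r of the deviations from the group means the 5 most alike were Fam72a, Fbf1, Olfr374, Car1 and Dsg1c (r from 0.985 to 0.998). Of these, Fbf1 was lower in KO, at 1.71 to 2.65 FPKM in WT and 0.61 to 0.72 in KO, and Olfr374 did not exceed 0.39 FPKM. By this measure 45 of the 384 other genes were more like the mean profile than the least alike of the 5 was to its fellows.

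Of the 23 genes on a list of the whole cholesterol synthesis pathway, these 5 were the ones with a row. The other 18, among them Hmgcs1, Pmvk, Idi1, Fdps, Sqle, Lss and Nsdhl, had no row among the genes analysed here, so no level of theirs is given. Of 16 genes for sterol sensing and sterol-regulated protein turnover, 1 was listed, Insig2, which was lower in KO, and neither SREBF2's gene nor any of the other genes on that list had a row. None of 14 genes for cholesterol uptake and transport, and none of 11 for the other isoprenoid branches, was listed.

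Insig2 encodes an endoplasmic reticulum protein that retains the SCAP and SREBP complex. Its FPKM was 241, 269 and 189 in WT replicates 1, 2 and 3, against 74.5, 73.1 and 82.8 in KO replicates 1, 2 and 3, with no overlap. It fell by 1.50 ± 0.31 on the log2 scale (SE, edgeR adjusted p = 0.00462). Within WT it was highest in replicate 2, where the 5 enzymes were lowest, and lowest in replicate 3, where they were highest. Within KO it was highest in replicate 3, where they were lowest. The r of its deviations from the group means with those of the 5 was -0.957 over 6 libraries, ranking 3 from the lowest of the 389 genes, whereas by r over the 6 libraries without removing group means (-0.866) it ranked 49 from the lowest. The same order of libraries within each group was seen in other listed genes, among them Got1, Chrna2 and Slc27a1 (r of deviations -0.926, -0.932 and -0.920). A link between Insig2 and the 5 enzymes was not tested. With the sum of listed counts as library size Insig2 did not pass (log2 difference -0.50, edgeR adjusted p = 0.161).

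Of 20 genes for cholesterol efflux, esterification and disposal, 2 were listed. Cyp7a1, whose product starts the conversion of cholesterol to bile acids, rose, from 13.4, 7.0 and 7.01 FPKM in WT replicates 1, 2 and 3 to 30.4, 26.5 and 14.1 in KO replicates 1, 2 and 3 (log2 difference 1.38 ± 0.40, SE; edgeR, adjusted p = 0.0115). Like the 5 enzymes, it had its lowest KO value in replicate 3, but in WT its highest value was in replicate 1. Nceh1, which encodes a cholesteryl ester hydrolase, fell, from 15.6, 12.5 and 11.9 FPKM in WT to 5.35, 6.19 and 4.53 in KO (edgeR, adjusted p = 0.00590). Por, named after its values were seen, encodes the reductase that passes electrons to CYP51 and to squalene epoxidase. It fell, from 347, 415 and 249 FPKM in WT replicates 1, 2 and 3 to 130, 184 and 153 in KO replicates 1, 2 and 3 (log2 difference -1.07 ± 0.33, SE; edgeR, adjusted p = 0.0136). Its call was lost on leaving out KO replicate 1 (edgeR adjusted p = 0.0536) or KO replicate 3 (0.0548). Scalings that take most listed genes as unchanged brought both genes closer to 0. With relative log expression factors neither passed, Por at -0.43 and Nceh1 at -0.65 on the log2 scale (edgeR adjusted p = 0.260 and 0.0725). With TMM factors Por did not pass at -0.52 and Nceh1 did at -0.74 (edgeR adjusted p = 0.198 and 0.0430).

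Of 19 genes for fatty acid synthesis under SREBF1 and MLXIPL, 9 were listed. Among these, 6 rose (Srebf1, Mlxipl, Mid1ip1, Pklr, Acly and Elovl6) and 3 fell (Fads2, Elovl5 and Acacb). Over all 389 genes, 39.8% passed as higher in KO and 59.9% as lower, and a difference from these shares was not tested. The median log2 fold change of the 9 was 1.34, beside 1.31 over the listed genes higher in KO and -1.10 over all 389. Because every gene was selected past a log2 change of 1, such a median mainly follows the direction of most genes in its set. With relative log expression factors Fads2 and Acacb did not pass (-0.61 and -0.44 on the log2 scale), and with the sum of listed counts Elovl5 did not either (-0.58). Srebf1, which encodes the SREBP of fatty acid synthesis, stood at 4.57, 3.92 and 15.9 FPKM in WT replicates 1, 2 and 3, against 28.6, 26.5 and 22.2 in KO replicates 1, 2 and 3. Like the 5 enzymes it was highest in replicate 3 among WT libraries and lowest in replicate 3 among KO libraries, and its groups did not overlap. KO exceeded WT by 1.62 ± 0.50 on the log2 scale (SE; edgeR, adjusted p = 0.0136), and by 2.54 without WT replicate 3. Acly, which makes the acetyl-CoA that both pathways start from, was at 21.3, 17.2 and 49.3 FPKM in WT replicates 1, 2 and 3, against 70.8, 98.7 and 55.4 in KO replicates 1, 2 and 3. KO replicate 2 was its highest library, as for Mvd, Fdft1 and Cyp51. The edgeR adjusted p of Acly was 0.0550 with WT replicate 2 left out and 0.0698 with KO replicate 2 left out. Its log2 fold change went from 1.34 to 1.95 without WT replicate 3 and to 1.07 without WT replicate 2. Elovl6 rose by 1.41 ± 0.53 on the log2 scale (SE; edgeR, adjusted p = 0.0252) and passed only without WT replicate 3 (2.26) or KO replicate 3 among the fits with 1 library left out.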

How the data were processed

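Liver RNA was measured in 3 KO and 3 WT samples, grouped by their titles. Nothing in the labels ties the samples to separate animals, and p-values then measure only how these samples differ, which may be technical in part. The submitters' processing notes name the tools RSEM, HISAT2, fastp (0.18.0) and StringTie (1.3.1). The roles of these tools, the genome build and the use of strand were not given in the sources used here. Read counts in whole numbers and FPKM were deposited by the authors for 389 selected genes, beside their own mean FPKM, log2 fold change, p-value and FDR per gene, per the file headers.

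Depth was recovered as the median of count over FPKM and transcript length, over 38 to 51 genes with 1 GENCODE M21 transcript, and no fewer than 50 counts and 1 FPKM. Counts were tested with edgeR 4.0.16 (R 4.3.3; quasi-likelihood, library size set to the recovered depth, without scaling or filter, all 6 libraries, Benjamini-Hochberg over 389 genes). The SE is the absolute log2 fold change over the square root of the F statistic. In a test on simulated counts of the 389 genes, 47 of 100 with an absolute log2 change of 1 were called by edgeR, 99 of 100 with one of 2, and 2 of 189 without change. The simulation gave every gene the same dispersion (biological coefficient of variation 0.347). The median coefficient of variation of FPKM in WT was 66.5% for the 5 enzyme genes and 39.4% over all listed genes. The simulated rates therefore do not carry over to the 5. Alternatives used DESeq2 1.42.0, limma 3.58.1, other scalings, a count filter, a replicate block and leaving out each library. Near-identical transcripts (at least 90% over 300 bases) were sought with BLAST 2.17.0. Replicates of a group differed by 47.2 or more in chi-square per degree of freedom, so none was treated as a duplicate. Gene IDs of 388 of the 389 genes matched GENCODE M21 (GRCm38), and positions are from it.

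The 5 genes and the gene lists were chosen with earlier results of these data known. Named genes are the 5, every listed gene of the pathway lists, and the 5 most alike by each of 2 correlations. The marker lists for cholangiocytes, stellate, endothelial, Kupffer, lymphoid and erythroid cells had no listed gene.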

Additional observations from a re-analysis of the deposited data

How the results depend on the processing

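All 5 enzyme genes kept a higher mean level in KO under every alternative run, with log2 fold changes from 0.77 to 2.02 for Cyp51, 0.91 to 2.07 for Fdft1, 0.99 to 2.21 for Msmo1, 1.04 to 2.30 for Mvd and 1.12 to 2.20 for Mvk. The authors had selected these genes past a log2 change of 1 on the same libraries, so their direction was largely fixed in advance. Of 80 such refits, 59 left the call as it was, 13 lost it and 8 gained it. The 8 gains were all for Cyp51, the only gene of the 5 not called in the main fit, and the 13 losses were all among the others. The number of the 5 that passed ranged from 1 to 5 with 1 library left out: leaving out WT replicates 1, 2 and 3 in turn left 3, 2 and 5, and leaving out KO replicates 1, 2 and 3 in turn left 1, 1 and 4. Of all 389 listed genes, the same WT omissions left 314, 345 and 372, and the same KO omissions 282, 278 and 314. Without KO replicate 1 or 2, Mvk was the gene that passed. When p-values were adjusted over 16198 genes, the number implied by the authors' FDR and p-values, with genes without a row ranked last, 0 of the 5 passed in edgeR, although 4 had an unadjusted p under 0.05, and 5 of all 389 genes did. DESeq2 with the same depths, adjusted over the 389 genes, called all 5, as it did all 389 listed genes.

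Scalings that take most listed genes as unchanged moved the median gene by 0.60 to 0.93 on the log2 scale, and the number of listed genes that passed from 388 (155 higher in KO, 233 lower) to 250 with TMM (156 higher, 94 lower), 236 with relative log expression factors (156 higher, 80 lower), 240 with DESeq2's own factors (156 higher, 84 lower) and 181 with the sum of listed counts as library size (154 higher, 27 lower). With 1 library left out, 278 to 372 listed genes passed.

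Replicate numbers are shared between genotypes, but same-numbered libraries did not deviate together (r of 0.048, 0.083 and -0.032 for numbers 1, 2 and 3 over 389 genes). With the replicate block all 5 enzyme genes passed, Cyp51 at 1.52 (edgeR adjusted p = 0.00451), and 382 listed genes did.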
